A study of Danio rerio with 9 samples.

Results

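The 8 libraries of zebrafish embryos exposed to a coal dust extract were set together, as 1 group, against the 1 control library of the series, to find the transcripts that moved alike whatever malformation the exposed embryos had. All 9 libraries of the study entered this comparison. They hold poly(A) RNA of whole wild-type embryos of the TU strain, lysed 24 h after fertilisation and kept at 28 C with a light phase of 14 h and a dark phase of 10 h. The exposed embryos received coal dust extracted with methanol and taken up in dimethyl sulfoxide, at 100 mg/L, from 4 h after fertilisation. They were sorted by appearance, 50 embryos to a group. P1 stands for deformed tails (3 libraries), P2 for deformed yolks (2 libraries) and P3 for embryos that were small and had extruded their yolk (3 libraries). The control was a pool of normal embryos (1 library), and the sources used here do not say whether it received the solvent. A gene was called when its edgeR adjusted p, corrected over all tested genes, was below 0.05. A called gene was taken as shared when all 8 exposed libraries lay on the same side of the control and the 3 phenotype means spanned at most 0.5 on the log2 scale, and as graded when they spanned more.

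Coal dust carries polycyclic aromatic hydrocarbons, and many of these bind the aryl hydrocarbon receptor (AHR), a transcription factor that waits in the cytoplasm until a ligand arrives. The bound receptor enters the nucleus, pairs with ARNT and switches on detoxifying enzymes, first of all the cytochrome P450 enzymes of family CYP1, together with proteins that dampen the receptor again. In zebrafish most of this signalling runs through the receptor Ahr2. At 24 h after fertilisation the embryo has patterned its axis and is building muscle fibres, lens fibres, pigment cells, skin and the fin folds, so that genes of these tissues are being switched on at the time of sampling.

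Gene counts summed to 14719252 to 20810487 in the exposed libraries and to 12008832 in the control. Levels are CPM, the counts of a gene relative to the total of its library after scaling between libraries, and 3 counts, the limit that a count of 0 allows, stand for 0.25 CPM in the control. Genes encoded in the mitochondrion took 2.97% to 4.35% of the counts in exposed libraries and 2.79% in the control. Over 12647 genes of at least 5 CPM, the typical (root mean square) log2 difference was 0.361 to 0.511 between an exposed library and the control, 0.23 to 0.352 between exposed libraries of different phenotypes, and 0.131 to 0.223 within a phenotype. P3 replicate 0 stood farthest from the other libraries of its own phenotype. With 1 control library, the spread of the control was taken to equal that of the exposed libraries, and p-values measure only how these libraries spread, which can be technical. A deviation of the control library itself and a response shared by all exposed embryos cannot be told apart in this design.

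Of 19835 genes tested, 1292 (6.51%) were called, 389 (1.96%) higher and 903 (4.55%) lower in exposed libraries. Of these, 340 higher (1.71%) and 629 lower (3.17%) were shared, and 49 higher (0.247%) and 274 lower (1.38%) were graded. Without P3 replicate 0, 445 genes were higher and 918 lower, 394 and 642 of them shared. Among all tested genes, 23.5% had all 8 exposed libraries above the control, 24.8% had all 8 below it, and 76.9% had phenotype means within 0.5 of each other, so neither of these conditions is rare by itself. The shared rises had a median size of 0.68 and the shared falls of 0.75 on the log2 scale, and 100 of the rises and 158 of the falls were at least 2-fold. At the limit, SMPDL3B (a range of 0.4958) and CLMP (0.4997) lay just inside it, and mylz3 (0.5002) and pah (0.5007) just outside. The 4-group fit, which takes the spread within phenotypes alone, found 5708 genes (28.8%) that differed among phenotypes in a joint F test at an adjusted p below 0.05. Of the shared genes, 78 of 340 rises and 131 of 629 falls were among those 5708, all with phenotype means within the limit. The count of 5708 was 3083 without P2 replicate 0 and 3145 without P2 replicate 1.

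**Figure D1:**
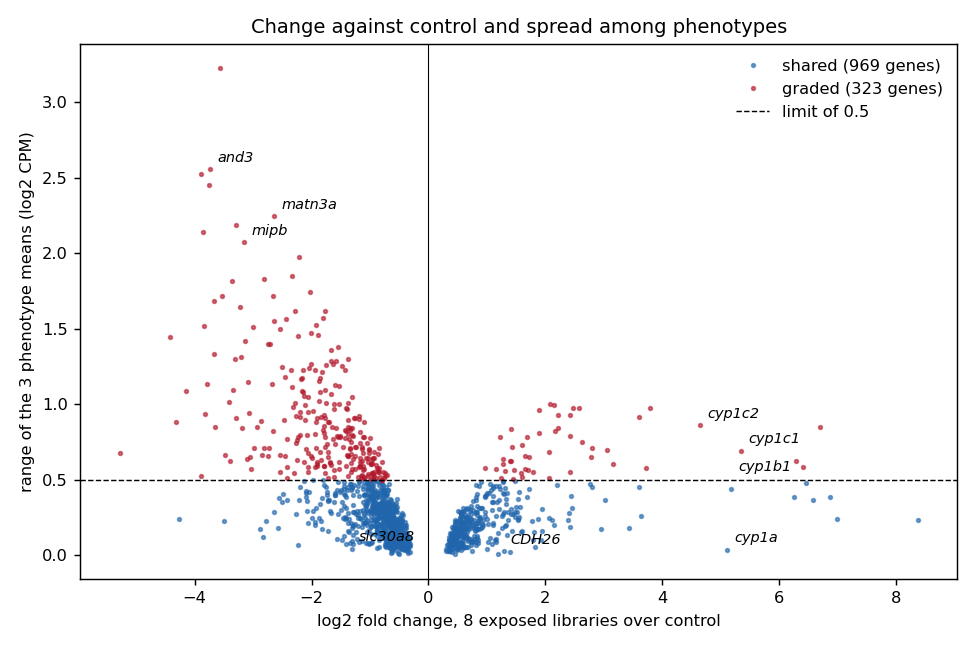
Each point is a called gene, 969 shared and 323 graded, with its log2 fold change (8 exposed libraries over the control) on the x axis and the range of the 3 phenotype means of log2 CPM on the y axis. The dashed line is the limit of 0.5, and cyp1a and CDH26 lie near the bottom of the plot while and3, matn3a and mipb lie far above the line.

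By its median, the AHR program rose farthest of the 34 gene lists examined, among which a gene can stand in several. Of 20 tested genes of the AHR list, 14 rose and 0 fell, against 1.96% of all tested genes higher and 4.55% lower. Of the 14 rises in the AHR list, 11 were shared. In this and the other lists given with 0 edgeR calls in 1 direction and calls in the other, 0 to 5 members had an unadjusted p below 0.05 in the direction without calls, and DESeq2 called 0 to 2. The AHR list had a median log2 fold change of 2.41, against 0.02 over all tested genes, or 1.90 with the members at 0 counts in the control (ahrrb and gstp2) set at their lower bound. cyp1a, the classic AHR target, which encodes a P450 enzyme that oxidises hydrocarbons (ENSDARG00000026039, Zv9 chromosome 18, bases 4974676 to 4985566), had 3821 CPM in the lowest, 4075 in the median and 4310 in the highest of the 8 exposed libraries, against 119 CPM in the control. Every exposed library stood far above the control, and the 8 lay close together. Expression was 34.4-fold higher (log2 fold change 5.11 ± 0.13 standard error, edgeR adjusted p = 4.19e-10), with phenotype values of 5.11 in P1, 5.08 in P2 and 5.12 in P3. The range of 0.04 among phenotypes was the smallest of the named genes that changed at least 4-fold.

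cyp1b1, which encodes another hydrocarbon-metabolising P450 (ENSDARG00000068934, chromosome 13, 42664264 to 42671929), had a lowest, median and highest exposed level of 327, 409 and 466 CPM, against 11.0 CPM in the control. The rise was 36.3-fold (5.18 ± 0.27, edgeR adjusted p = 1.44e-06), and within it P2 stood below P1 and P3 (4.89 in P2, 5.33 in P1 and 5.19 in P3; joint F adjusted p = 0.000445). Of its relatives, cyp1c1 (Zv9_NA892, 103570 to 106640, ENSDARG00000058980) rose 40.9-fold and cyp1c2 (Zv9_scaffold3548, 298353 to 300627, ENSDARG00000018298) rose 24.9-fold, and both were graded. cyp1c1 had 118 to 217 CPM in exposed libraries, against 3.92 CPM in the control. cyp1c2 had 20.9 to 46.2 CPM in exposed libraries, against 1.34 CPM from 16 reads in the control. P1 was highest and P2 lowest for both CYP1C genes, which are close copies whose shared reads make the split between them uncertain. Per length, in the FPKM values deposited by the authors, the exposed libraries averaged 1564 for cyp1a, 118 for cyp1b1, 52.4 for cyp1c1 and 21.7 for cyp1c2, against 45.3, 3.24, 1.27 and 0.862 in the control. cyp1d1, a member of the family not known as an AHR target in zebrafish, was not called (-0.11 ± 0.26).

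The receptor gene ahr2 and the feedback gene tiparp rose by smaller folds than cyp1a, cyp1b1, cyp1c1 and cyp1c2. ahr2, the receptor gene itself, had 62.2, 76.9 and 83.1 CPM in the lowest, median and highest exposed library, against 41.9 CPM in the control, and rose 1.78-fold (0.84 ± 0.14, edgeR adjusted p = 0.00694). The phenotypes lay within 0.12 of each other. ahr1b, a second receptor gene, had an uncalled value of -0.74 ± 0.28. tiparp, whose product adds ADP-ribose to AHR and restrains it (ENSDARG00000061841, chromosome 18, 32941753 to 32984515), had 139, 154 and 165 CPM, against 44.1 CPM in the control, a rise of 3.5-fold (1.81 ± 0.11, edgeR adjusted p = 9.89e-06). The repressor gene ahrrb had 0 counts in the control and 0.249 to 1.4 CPM in exposed libraries, a mean at least 3.98-fold above the floor of 3 counts per library, but was not called (adjusted p = 0.0574). gstp2, a copy of the glutathione transferase gene gstp1, also had 0 counts in the control and was not called, with a mean at least 5.35-fold above the floor.

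Further AHR-responsive genes known from zebrafish rose too, most of them within the limit on the range. sult6b1, a sulfotransferase gene, had 420, 471 and 589 CPM in the lowest, median and highest exposed library, against 60.0 CPM in the control (8.1-fold higher, 3.02 ± 0.21, edgeR adjusted p = 2.46e-05). The forkhead transcription factor gene foxq1a had 19.1, 27.06 and 28.6 CPM, against 2.09 CPM in the control (12.1-fold, 3.60 ± 0.31), and foxq1b rose less (1.16 ± 0.22). WFIKKN1, which encodes a secreted protease inhibitor, had 41.1 to 56.3 CPM in exposed libraries, against 16.8 CPM in the control (1.53 ± 0.18). The glutathione transferase gene gstp1 had 361 to 618 CPM, against 139 CPM in the control (1.77 ± 0.26). The glucuronosyltransferase gene ugt1ab (1.33 ± 0.17) and the carbonyl reductase gene cbr1l (0.79 ± 0.15) rose within the limit, whereas the monocarboxylate transporter gene slc16a9b (3.80 ± 0.54) was graded. For all of these genes every exposed library lay above the control, as the rules for shared and graded genes require. In the joint F test, slc16a9b (adjusted p = 2.73e-08), sult6b1 (0.00276), foxq1a (0.00465) and cbr1l (0.00641) differed among phenotypes. In the same test foxq1b, WFIKKN1, gstp1 and ugt1ab were not below 0.05. nqo1, a quinone reductase gene that AHR drives in mammals, had 40.9, 50.0 and 58.4 CPM in the lowest, median and highest exposed library, against 48.3 CPM in the control. The exposed and control values overlapped, and the change of 0.05 ± 0.15 was not called (edgeR adjusted p = 0.866).

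**Figure D2:**
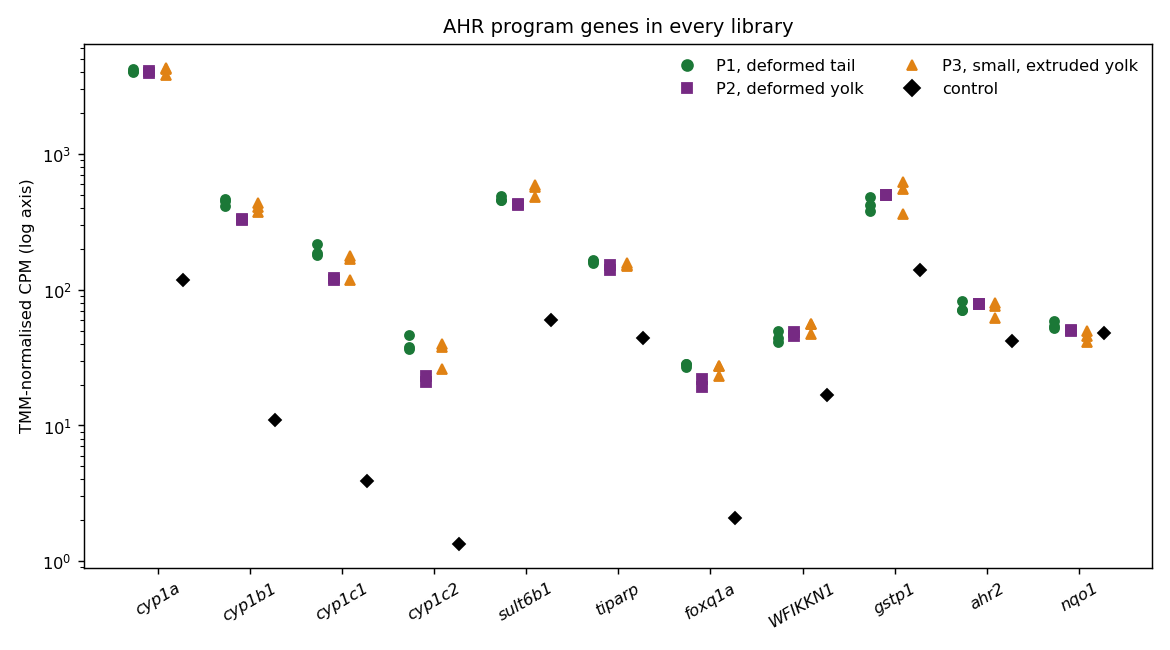
Normalised CPM on a log axis for 11 genes of the AHR program, with P1, P2 and P3 libraries as coloured symbols left of the black diamond of the control. For cyp1a the 8 exposed libraries sit between 3821 and 4310 CPM against 119 CPM in the control, and for nqo1 they lie on both sides of the control at 48.3 CPM.

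Outside the AHR list, the largest shared rise of a gene with an assigned symbol and at least 5 CPM was gchfr (ENSDARG00000012187, Zv9_scaffold3548, 229917 to 235080), whose product regulates GTP cyclohydrolase, the entry enzyme of tetrahydrobiopterin synthesis. It had 6.98, 8.25 and 9.08 CPM in the lowest, median and highest exposed library, against 0.751 CPM from 9 reads in the control (3.43 ± 0.27, edgeR adjusted p = 4.03e-05). The dehydrogenase gene dhrs13l1 followed at 5.86 to 18.1 CPM, against 1.59 CPM in the control (2.80 ± 0.70). Its exposed libraries were widely spread but, as the rule for shared genes requires, did not reach the control. The forkhead gene foxf2a (1.72 ± 0.24) and the interleukin-6 receptor gene il6r (1.48 ± 0.28) rose by smaller amounts, with phenotypes that differed by less than 0.5. The lipase gene abhd4 (1.56 ± 0.41, edgeR adjusted p = 0.0419) was lowest in P3 replicate 0. Its call was lost in 7 of 8 refits that left out 1 library, at adjusted p up to 0.0642, and without P3 replicate 0 its value was 1.67 at adjusted p = 0.00148. CDH26, a cadherin adhesion gene, had 137, 141 and 151 CPM, against 58.4 CPM in the control (1.29 ± 0.09, edgeR adjusted p = 3.03e-05), and its phenotype values of 1.29 in P1, 1.27 in P2 and 1.29 in P3 were nearly the same. The transcription factor gene sox14, which marks some interneurons, had 10.6 to 13.0 CPM in exposed libraries, against 5.43 CPM in the control (1.09 ± 0.16), with a range of 0.07.

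Among genes with an assigned symbol and at least 5 CPM in the higher group, the largest shared fall was cyp17a1 (ENSDARG00000033566, chromosome 13, 28824797 to 28834567), which encodes the steroid 17-hydroxylase of androgen and cortisol synthesis. It had 2.16, 2.58 and 3.78 CPM in the lowest, median and highest exposed library, against 16.5 CPM in the control, and was 5.85-fold lower (-2.55 ± 0.22, edgeR adjusted p = 8.96e-05). No exposed library came near the control. The next among these genes were oca2, a melanosome channel gene (-2.19 ± 0.28), and tgm1, which encodes a transglutaminase that cross-links skin proteins (-1.88 ± 0.28). The transcriptional repressor gene hic1 (-1.60 ± 0.31) and the transcription factor genes pou2f2a (-1.48 ± 0.17) and six2a (-1.33 ± 0.25) were further shared falls. The zinc transporter gene slc30a8 had 14.0, 14.7 and 16.2 CPM, against 36.4 CPM in the control (-1.31 ± 0.10, edgeR adjusted p = 3.98e-05). Its range of 0.05 was the smallest among the 14 largest of these shared falls. The matrix gene emilin1a (-1.01 ± 0.10) and the actin-capping gene capg (-1.04 ± 0.10) had ranges of 0.08 each.

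**Figure D3:**
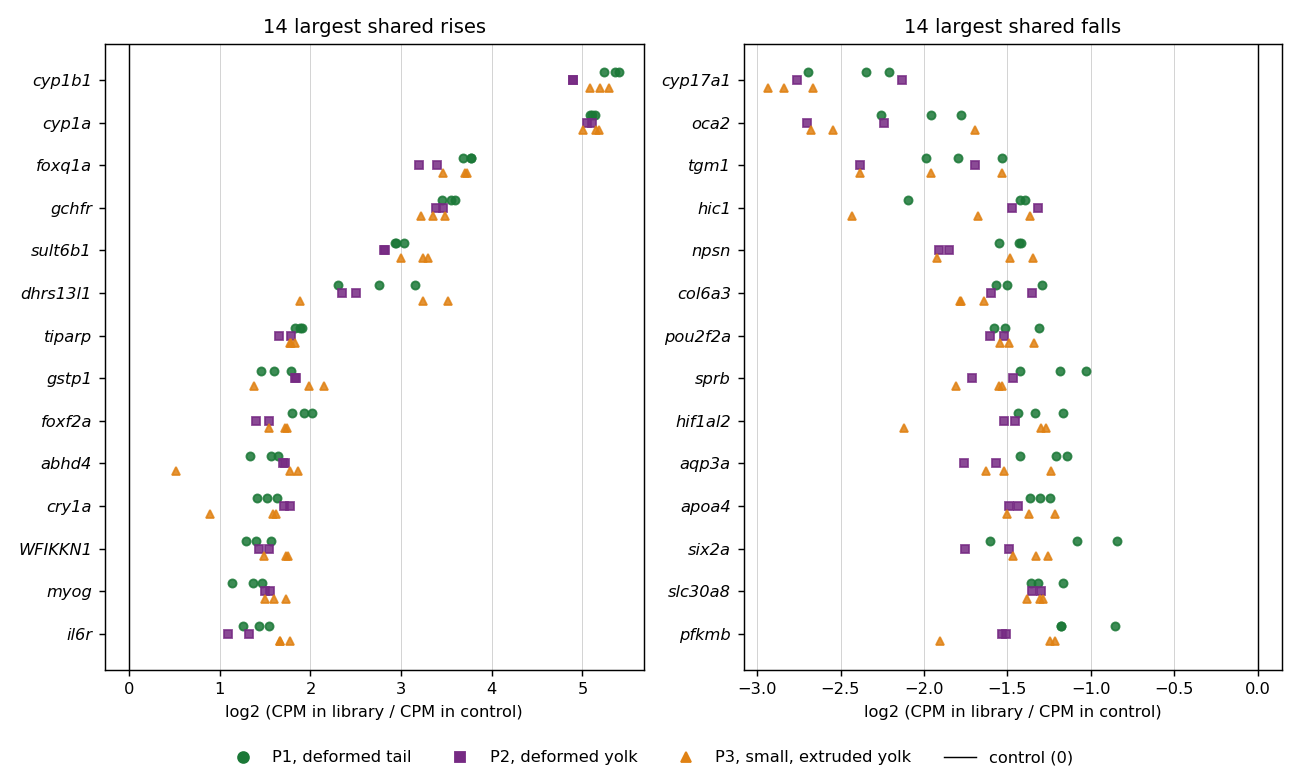
For the 14 largest shared rises and the 14 largest shared falls among genes with an assigned symbol and at least 5 CPM in the higher group, each symbol gives 1 exposed library as the log2 ratio of its CPM to the control, with the control at the line of 0. As the rule for shared genes requires, the 8 symbols of a gene lie on the same side of the line. They lie tightly for cyp1a and slc30a8 and loosely for dhrs13l1, and for abhd4 and cry1a the symbol nearest to 0 is P3 replicate 0.

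Other xenobiotic and redox genes had smaller list medians than the AHR program. Counts in these lists are set against 1.96% of all tested genes higher and 4.55% lower. Of 45 further xenobiotic enzymes and transporters, 7 rose and 1 fell, with a median of 0.15. Shared rises among them were zgc:158387 (0.96 ± 0.20), named mgst3b, a microsomal glutathione transferase gene, in the reference table, and the drug exporter gene abcb5 (0.83 ± 0.18). ugt5a1, a glucuronosyltransferase gene, had 0 counts in the control and 0.596 to 1.21 CPM in exposed libraries, a mean at least 3.57-fold above the floor of 3 counts per library. Of 35 genes of the Nrf2 and redox list, which answers to oxidants and electrophiles, 7 rose and 1 fell, with a median of 0.27. The fall was a graded ferritin gene, FTL (-1.13 ± 0.31), whose call was lost with any 1 library left out. nfe2l2a, the gene of the factor Nrf2 itself, had 38.5, 49.0 and 52.0 CPM, against 29.6 CPM in the control (0.71 ± 0.15, edgeR adjusted p = 0.0167). The peroxiredoxin gene prdx1 (0.83 ± 0.16), the glutathione reductase gene gsr (0.55 ± 0.14) and the pentose phosphate genes pgd (0.42 ± 0.11) and tkt (0.58 ± 0.14) rose with phenotypes within the limit. The haem oxygenase gene hmox1, chosen after its values were seen, had -0.23 ± 0.19 and was not called. Of 18 metallothionein and zinc genes, 0 rose and 2 fell, which were slc30a8 and the metallothionein gene mt2 (-1.1 ± 0.19). mt2 had 32.9 to 53.2 CPM in exposed libraries, against 94.3 CPM in the control.

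**Figure D4:**
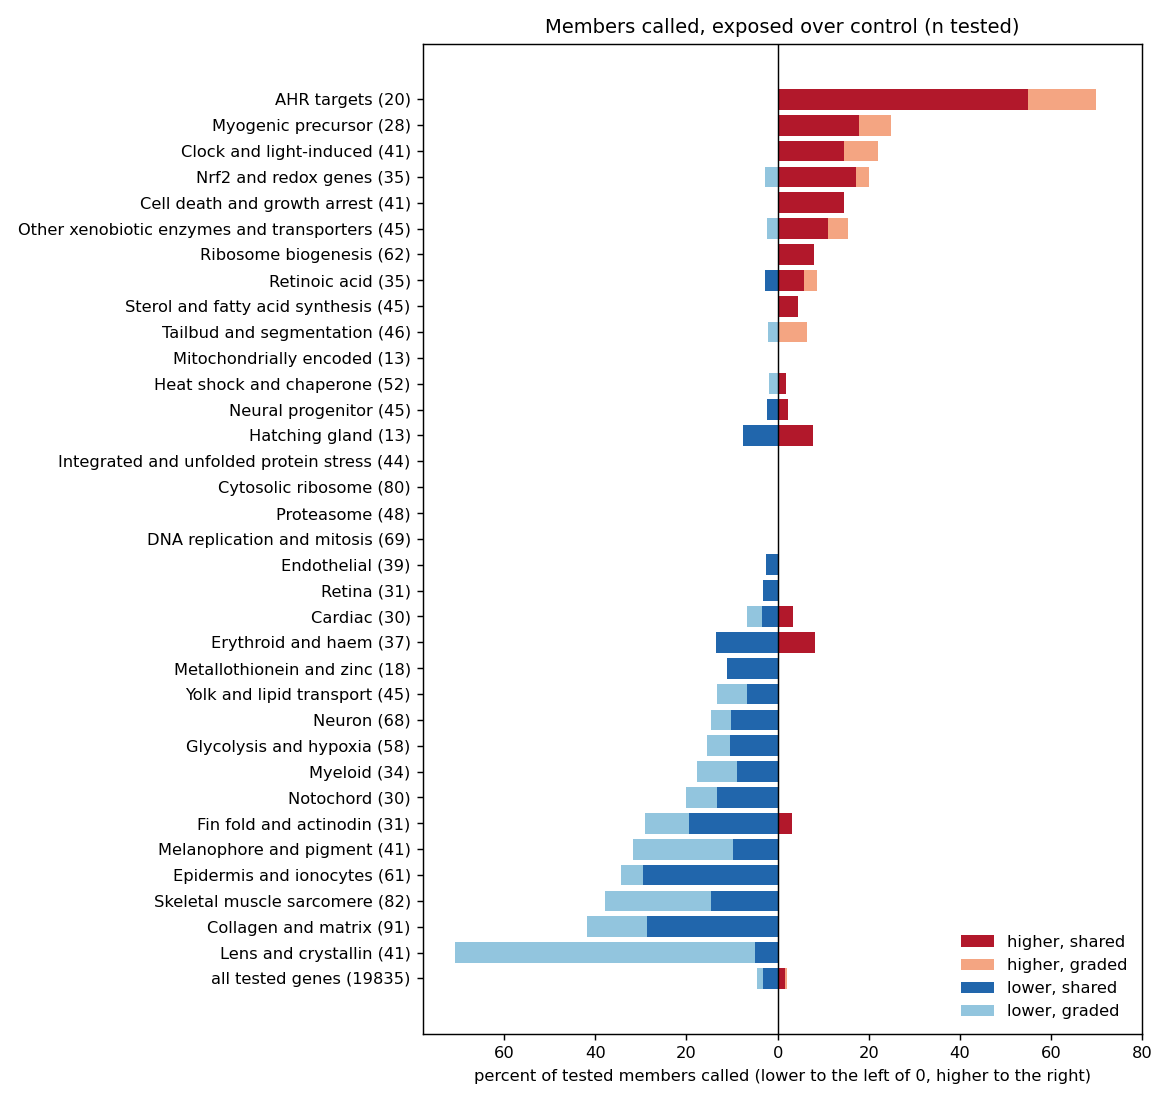
Percent of the tested members of each gene list that were called, higher to the right of 0 and lower to the left, split into shared (dark) and graded (light), with the number tested in brackets. The AHR list reaches farthest to the right with 14 of 20 members, the lens list farthest to the left with 29 of 41, and the bar of all 19835 tested genes is at the bottom.

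Some genes of ribosome assembly, of the cell death list and of the clock list rose, most of them within the limit on the range. Of 62 ribosome biogenesis genes, 5 rose and 0 fell, against 1.96% of all tested genes higher and 4.55% lower. All 8 exposed libraries lay above the control for 54 of the 62, against 23.5% of all tested genes. The list median was 0.33, with phenotype medians of 0.33 in P1, 0.49 in P2 and 0.22 in P3. In the joint F test, 42 of the 62 genes differed among phenotypes at an adjusted p below 0.05, against 28.8% of all tested genes. polr1b, a subunit gene of RNA polymerase I, had 43.1, 47.5 and 49.0 CPM, against 27.3 CPM in the control (0.78 ± 0.10, edgeR adjusted p = 0.00192). The rRNA methylation genes RRP8 (0.64 ± 0.15) and fbl (0.38 ± 0.10) also rose, although fbl lost its call in 6 of 8 refits that left out 1 library (adjusted p up to 0.063). The count of 5 was 2 to 4 with 1 library left out, lowest without P1 replicate 0, and it was 48 when the spread was taken within phenotypes. For the proteins of the ribosome itself, edgeR called 0 of 80 genes, DESeq2 also called 0, 1 gene had an unadjusted p below 0.05, and the median was 0.01.

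Of 41 genes of the list of cell death and growth arrest, 6 rose and 0 fell, all shared, with a median of 0.22. Among all tested genes, 1.96% were higher, 4.55% lower and 1.71% shared rises. The count of 6 was 4 to 7 with 1 library left out, lowest without P1 replicate 1. The ubiquitin ligase gene mdm2 (0.55 ± 0.14), the cell death gene baxa (0.46 ± 0.11) and the growth arrest genes gadd45aa (1.1 ± 0.25) and gadd45bb (0.70 ± 0.18) were among them, and so was the forkhead gene foxo3b (0.67 ± 0.14). As the rule for shared genes requires, no exposed library overlapped the control in these genes.

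Of 41 clock and light-induced genes, 9 rose and 0 fell, against 1.96% of all tested genes higher and 4.55% lower. Of the 9 rises, 6 were shared, and the list median was 0.36. The cryptochrome gene cry1a, a repressor of the clock, had 43.3, 70.6 and 79.9 CPM in the lowest, median and highest exposed library, against 23.3 CPM in the control (1.54 ± 0.27, edgeR adjusted p = 0.00744). Its relative cry2b, named cry3b in the reference table, had 28.5, 45.6 and 48.4 CPM, against 17.6 CPM in the control (1.29 ± 0.24). The clock output factor gene tefa had 146, 222 and 270 CPM, against 89.6 CPM in the control (1.32 ± 0.26). The nucleotide excision repair genes ddb2 (1.42 ± 0.33) and xpc (0.76 ± 0.20), which are light-induced in zebrafish, were also among the shared rises, and per2 (1.72 ± 0.37), cry5 (2.07 ± 0.46) and cry-dash (1.65 ± 0.42) were graded. P3 replicate 0 was lowest of the 8 for cry1a, cry2b and tefa. The count of 9 was 6 to 10 with 1 library left out, 6 without P3 replicate 1 and 9 without P3 replicate 0, and without P3 replicate 0 cry1a was at 1.61 and cry2b at 1.36. The sources used here do not give the hour of the day at which each group was lysed, and its part in the result was not tested.

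Among muscle genes, the called falls were in the list of the mature fibre and the called rises in the list of its precursors. Counts in both lists are set against 1.96% of all tested genes higher and 4.55% lower. Of 82 sarcomere and excitation-contraction genes, 0 rose and 31 fell, 12 shared and 19 graded, with a median of -0.70. Of 28 myogenic precursor genes, 7 rose and 0 fell, 5 of them shared, with a median of -0.05. The precursor list did not move as a whole: all 8 exposed libraries lay above the control for 11 of the 28 genes and below it for 9. With the spread taken within phenotypes, 8 precursor genes were higher and 3 lower. myog, the factor that commits myoblasts to differentiate (ENSDARG00000009438, chromosome 11, 23429775 to 23432785), had 59.9, 76.9 and 90.3 CPM in the lowest, median and highest exposed library, against 27.22 CPM in the control (2.81-fold higher, 1.49 ± 0.19, edgeR adjusted p = 0.00129). The myoblast fusion genes tmem8c (1.11 ± 0.24) and jam2a (1.47 ± 0.29, graded) and the somite factor gene meox1 (0.84 ± 0.16) rose too. The determination factor gene myod1, chosen after its values were seen, had -0.01 ± 0.17.

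On the side of the mature fibre, trdn, which encodes triadin of the calcium release complex, had 24.9, 31.2 and 35.7 CPM, against 58.4 CPM in the control (-0.90 ± 0.15, edgeR adjusted p = 0.00559). The muscle phosphofructokinase gene pfkmb (-1.30 ± 0.23), the actinin gene actn2 (-0.64 ± 0.14), the calcium release channel gene ryr1b (-0.74 ± 0.17), the nebulin gene neb (-0.83 ± 0.22) and the fast myosin gene myhz2 (-0.84 ± 0.18) fell within the limit. Graded falls included the fast light chain gene mylpfb (-1.88 ± 0.31), the parvalbumin gene pvalb1 (-1.42 ± 0.36) and the creatine kinase gene ckma (-0.76 ± 0.20). The 82 genes summed to 33250 to 47300 CPM in exposed libraries, against 62030 CPM in the control. In RNA of whole embryos, fewer cells of a type and less RNA per cell cannot be told apart, here and for every tissue list that follows. The count of 31 falls was 18 to 38 with 1 library left out, lowest without P3 replicate 1, and 45 without both P2 libraries. With the spread taken within phenotypes, it was 66.

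By count, collagen and matrix genes made up the largest group of shared falls among the lists, and their list had the most tested members. Of 91 collagen and matrix genes tested, 0 rose and 38 fell, against 4.55% of all tested genes lower, and 26 of the falls were shared. The epidermis and ionocyte list held 18 shared falls among 61 genes, and 3.17% of all tested genes were shared falls. The collagen and matrix list had a median of -0.45 and phenotype medians of -0.41 in P1, -0.44 in P2 and -0.55 in P3. In the joint F test, 48 of the 91 differed among phenotypes at an adjusted p below 0.05, against 28.8% of all tested genes. col6a3, a collagen VI chain gene (ENSDARG00000077139, chromosome 9, 24947662 to 25027570), had 8.79, 10.1 and 12.4 CPM in the lowest, median and highest exposed library, against 30.3 CPM in the control (2.94-fold lower, -1.55 ± 0.16, edgeR adjusted p = 0.000296). The basement membrane genes col4a1 (-0.82 ± 0.12) and col4a2 (-0.88 ± 0.11) fell together. So did the fibrillar collagen I genes col1a1a (-0.83 ± 0.13), col1a1b (-0.92 ± 0.12) and col1a2 (-0.71 ± 0.12). col1a1a had 665, 775 and 940 CPM, against 1403 CPM in the control. The collagen-binding genes sparc (-0.61 ± 0.08), dcn (-0.66 ± 0.13) and postnb (-0.50 ± 0.12) and the collagen-modifying genes plod1a (-0.54 ± 0.10) and p4ha2 (-0.69 ± 0.18) were shared falls as well. As the rule for shared genes requires, no exposed library reached the control for any of these genes.

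Fin fold and notochord genes overlap with the matrix list. Their counts are set against 1.96% of all tested genes higher and 4.55% lower. Of 31 fin fold genes, 1 rose (1 to 3 with 1 library left out) and 9 fell, 6 of the falls shared. The actinodin genes, which build the fibres of the fin fold, were graded, with and1 at -2.43 ± 0.46, and2 at -4.42 ± 0.38 and and3 at -3.73 ± 0.61. The rise was the homeobox gene msxd (0.90 ± 0.13). Of 30 notochord genes, 0 rose and 6 fell, with a median of -0.08. All 8 exposed libraries lay above the control for 9 of the 30 genes and below it for 11. The 30 genes summed to 3072 to 3564 CPM in exposed libraries, against 3963 CPM in the control. The cartilage-type genes matn4 (-0.72 ± 0.12) and col9a3 (-0.65 ± 0.13) fell within the limit, as did the lysyl oxidase gene loxl5b (-0.68 ± 0.18), whose call was lost in 3 of 8 refits with 1 library left out (P1 replicate 1, P3 replicate 1 or P3 replicate 2, adjusted p up to 0.0567).

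Skin genes that fell did so mostly within the limit on the range. Among 61 genes of epidermis and ionocytes, 0 rose and 21 fell, 18 of them shared, with a median of -0.28 and phenotype medians of -0.30 in P1, -0.24 in P2 and -0.28 in P3. Of the 61 genes, 32 differed among phenotypes in the joint F test at an adjusted p below 0.05, against 28.8% of all tested genes. The count of falls stayed at 21 or 22 with any 1 library left out, and 4.55% of all tested genes were lower. krt4, a keratin gene of the outer skin layer, had 9696, 10600 and 11090 CPM, against 15360 CPM in the control (1.46-fold lower, -0.55 ± 0.09, edgeR adjusted p = 0.00516). The keratin gene krt5 (-0.79 ± 0.17), the hemidesmosome integrin gene itgb4 (-0.79 ± 0.14) and tp63 (-0.40 ± 0.08), which encodes the master factor of epidermis, fell too. All 8 exposed libraries lay below the control for these genes, as the rules for shared and graded genes require. tp63 had phenotype means within 0.04 of each other. KRT23 (1 of 15), named krt97 in the reference table, had 42.5 to 60.1 CPM in exposed libraries, against 131 CPM in the control (-1.30 ± 0.15). Keratins have close copies, and the split of reads among them is uncertain. The water channel gene aqp3a, held in the hatching gland list, had 21.2, 25.9 and 32.6 CPM, against 72.0 CPM in the control (-1.42 ± 0.17). The summed level of the 61 skin genes was 22850 to 25570 CPM in exposed libraries, against 31720 CPM in the control.

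Lens genes fell farthest of all tissue lists, but few of them equally in the 3 phenotypes. Of 41 tested lens and crystallin genes, 0 rose and 29 fell, 2 of them shared and 27 graded, with a median of -2.23 and phenotype medians of -1.72 in P1, -3.07 in P2 and -2.48 in P3. Their summed level was 163.5 to 322.3 CPM in exposed libraries, against 909.7 CPM in the control. The shared falls were the lens membrane gene lim2.1, with 3.73 to 5.43 CPM in exposed libraries, against 10.8 CPM in the control (-1.24 ± 0.19), and the alpha-crystallin gene cryaa (-2.0 ± 0.47). cryaa had 11 reads in the control and 3 to 5 in exposed libraries, so its range among phenotypes, and with it the shared label, is uncertain. Gamma-crystallin genes are close copies, and reads shared between them make single values uncertain. In the retina list 1 of 31 genes fell, against 4.55% of all tested genes, and the list median was -0.20. The gene that fell was the eye field factor gene six6b (-0.90 ± 0.18). The retina genes summed to 623 to 744 CPM in exposed libraries, against 755 CPM in the control.

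Pigment genes fell in part alike and in part by phenotype. Of 41 pigment genes, 0 rose and 13 fell, 4 of them shared, with a median of -0.42. Among all tested genes, 4.55% were lower and 3.17% were shared falls. Their summed level was 1627 to 2148 CPM in exposed libraries, against 2601 CPM in the control. oca2 (ENSDARG00000061303, chromosome 6, 37813999 to 37945756) had 1.9, 2.6 and 3.81 CPM, against 12.4 CPM in the control (4.56-fold lower, edgeR adjusted p = 0.00159). The melanin synthesis genes tyr (-1.14 ± 0.21), dct (-1.76 ± 0.35) and tyrp1b (-1.59 ± 0.39) were graded. The other shared falls serve pteridine and purine synthesis, from which yellow and silver pigments are made. These were gch2 (-0.90 ± 0.17), the gene of GTP cyclohydrolase in pigment cells, PTS (-0.98 ± 0.17), for the next enzyme of that path, and the purine gene atic (-0.43 ± 0.09). sprb, whose product sepiapterin reductase completes the path, was outside the list and fell by 1.44 ± 0.21 on the log2 scale. gch2 had 185, 229 and 270 CPM, against 433 CPM in the control.

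Neuronal genes were lower in most cases by small amounts. Of 68 neuron genes, 0 rose and 10 fell, 7 of them shared, and 53 of 68 had all 8 exposed libraries below the control, against 24.8% of all tested genes. The list median was -0.39, and the 68 genes summed to 1644 to 1957 CPM in exposed libraries, against 2235 CPM in the control. The transcription factor gene ebf3 had 19.8, 22.1 and 23.5 CPM, against 40.2 CPM in the control (-0.86 ± 0.10, edgeR adjusted p = 0.0012). The synaptic vesicle genes syn2a (-0.83 ± 0.19) and sypa (-0.65 ± 0.16), the release machinery gene snap25a (-0.51 ± 0.12) and the G protein gene gng3 (-0.67 ± 0.14) fell within the limit. The count of 10 was 6 to 14 with 1 library left out, lowest without P3 replicate 2, and 41 with the spread taken within phenotypes. Calls in the neuron and neural progenitor lists are set against 1.96% of all tested genes higher and 4.55% lower. Of the 45 neural progenitor genes, 1 rose and 1 fell, with a median of -0.01. The rise was the Notch target gene her4.1 (1.19 ± 0.30), which has close copies and 23 reads in the control, and the fall was the intermediate filament gene nes (-0.67 ± 0.17). her4.1 lost its call without P1 replicate 1, P3 replicate 1 or P3 replicate 2 (adjusted p up to 0.0536), and nes without P3 replicate 2 (adjusted p = 0.0565).

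Calls in the blood lists are set against 1.96% of all tested genes higher and 4.55% lower. Of 37 erythroid and haem genes, 3 rose and 5 fell, all shared, with 3 to 6 falls when 1 library was left out (3 without P3 replicate 1). The 37 genes had a median of -0.09 and summed to 3343 to 4596 CPM in exposed libraries, against 5309 CPM in the control. The falls included genes of the maturing red cell, which were the carbonic anhydrase gene cahz (-0.82 ± 0.11), the anion exchanger gene slc4a1a (-0.78 ± 0.18), the ammonium transporter gene rhag (-0.72 ± 0.19) and the globin gene hbae3 (-0.55 ± 0.15). They also included the tropomodulin gene tmod4 (-0.78 ± 0.16), at -0.60 in P1, -1.04 in P2 and -0.82 in P3 (joint F adjusted p = 0.000936). cahz had 39.8, 47.9 and 50.6 CPM, against 83.2 CPM in the control. The rises were nt5c2l1 (0.73 ± 0.14), znfl2a (0.82 ± 0.18) and tspo (0.85 ± 0.20). Of 34 myeloid genes, 0 rose and 6 fell, 3 of them shared, with a median of 0.04. All 8 exposed libraries lay above the control for 10 of the 34 genes and below it for 10. The summed level of the myeloid genes was 1889 to 2499 CPM in exposed libraries, on both sides of the control at 2029 CPM. The shared falls were npsn, a neutrophil protease gene (-1.59 ± 0.20), coro1a, for a leukocyte actin regulator (-0.89 ± 0.15, with phenotypes within 0.05), and rac2, for a leukocyte GTPase (-0.60 ± 0.15). The neutrophil genes mpx (-1.85 ± 0.37) and lyz (-1.51 ± 0.27) were graded. Of 39 endothelial genes 1 fell, the vessel factor gene fli1a (-0.46 ± 0.10).

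Lipid carrier genes and genes of anaerobic metabolism held further shared falls. Among 45 genes of yolk and lipid transport, 0 rose and 6 fell, 3 of them shared, with a median of -0.03. Of all tested genes, 4.55% were lower and 3.17% were shared falls. The phenotype medians of the yolk list were -0.12 in P1, -0.31 in P2 and 0.13 in P3. In the joint F test, 37 of its 45 genes differed among phenotypes at an adjusted p below 0.05, against 28.8% of all tested genes. apoa4, named apoa4b.1 in the reference table (ENSDARG00000040298, chromosome 16, 26153363 to 26162762), had 154, 170 and 189 CPM, against 438 CPM in the control (2.57-fold lower, -1.36 ± 0.10, edgeR adjusted p = 3.03e-05). si:dkey-7f3.15, its copy apoa4b.3, had 5.98 to 11.7 CPM in exposed libraries, against 35.0 CPM in the control (-2.09 ± 0.24). The annotated ranges of these copies overlap on the same strand, so their reads may be shared. apoc2, 61285 bases beyond apoa4, fell less (-0.65 ± 0.10). Among 58 genes of glycolysis and hypoxia, 0 rose and 9 fell, 6 of them shared, with a median of -0.25. They included the lactate dehydrogenase gene ldha (-0.50 ± 0.12), the lactate exporter gene slc16a3 (-0.82 ± 0.21), the hexokinase gene hk1 (-0.40 ± 0.11) and hif1al2 (-1.42 ± 0.23). hif1al2 had 2.62, 4.35 and 5.05 CPM, against 11.4 CPM in the control, with P3 replicate 0 lowest. The count of 9 falls in the glycolysis and hypoxia list was 6 to 11 with 1 library left out. With the spread taken within phenotypes, 8 of its genes were higher and 26 lower. In the joint F test, 30 of the 58 differed among phenotypes at an adjusted p below 0.05, against 28.8% of all tested genes.

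The remaining lists are given with their counts, against 1.96% of all tested genes higher and 4.55% lower. Of 13 hatching gland genes, 1 rose (prdm1a, 0.54 ± 0.13) and 1 fell (aqp3a, given above with the skin genes). Of 35 retinoic acid genes, 3 rose and 1 fell. The retinal reductase gene dhrs3b (0.63 ± 0.15) and the hindbrain gene hoxb1a (0.82 ± 0.22) rose within the limit, hoxb1a without its call in 4 of 8 refits with 1 library left out (adjusted p up to 0.0686), and the cyp26a1 relative cyp26c1 (-0.42 ± 0.10) fell. Of 46 tailbud and segmentation genes, 3 rose and 1 fell, all graded, and the rises were 1 to 4 with 1 library left out (1 without P3 replicate 2). They were the tail factor genes cdx4 (1.31 ± 0.34) and tbx6 (1.90 ± 0.50) and the retinoic acid hydroxylase gene cyp26a1 (1.27 ± 0.27). Of 30 cardiac genes, 1 rose (nkx2.7, a heart field factor gene, 0.79 ± 0.18) and 2 fell, against 8 higher and 2 lower with the spread taken within phenotypes. Of 52 heat shock and chaperone genes 1 rose, hsf2 (0.60 ± 0.13), a heat shock factor gene, and 1 fell. Of 45 sterol and fatty acid synthesis genes 2 rose and 0 fell, dhcr7 (0.70 ± 0.16), for the last step to cholesterol, and elovl7a (0.39 ± 0.10), which lost its call in 6 of 8 refits with 1 library left out (adjusted p up to 0.0691). By edgeR, 0 of 69 DNA replication and mitosis genes, 0 of 48 proteasome genes, 0 of 44 integrated and unfolded protein stress genes and 0 of 13 mitochondrially encoded genes were called. An unadjusted p below 0.05 was found for 16 replication, 11 proteasome, 6 protein stress and 3 mitochondrial genes, all higher. Over all members of these lists, DESeq2 called 3, 4, 2 and 2 genes, in that order, all higher. With the spread taken within phenotypes, 21, 13, 10 and 9 were called, all higher except 2 of the 10 protein stress genes.

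The graded genes had phenotype means more than 0.5 apart, and the joint F test at an adjusted p below 0.05 was passed by 38 of the 49 graded rises and 184 of the 274 graded falls. Of the 274 graded falls, 223 lay farthest from the control in P2, 42 in P3 and 9 in P1, and of the 49 graded rises 32 lay farthest in P2, 14 in P3 and 3 in P1. The fin fold gene and3 had the largest range among graded genes with an assigned symbol and at least 5 CPM, with -2.96 in P1, -6.01 in P2 and -3.93 in P3. Its 8 exposed libraries had 0.244 to 2.64 CPM, against 17.2 CPM in the control, and its lowest count was 4 reads. P3 replicate 0, at 0.249 CPM, was about as low as the P2 libraries (0.244 and 0.272 CPM). The size of the gap between P2 and P3 is therefore uncertain for and3. The cartilage matrix gene matn3a had -1.96 in P1, -4.50 in P2 and -2.73 in P3, and lost its call without P3 replicate 1 (adjusted p = 0.0509). Its lowest library was P3 replicate 0 (0.374 CPM), below both P2 libraries (0.487 and 0.38 CPM). With 6 reads as its lowest count, the gap between P2 and P3 is uncertain here too. The lens water channel gene mipb had -2.43 in P1, -4.73 in P2 and -3.41 in P3. The same order, P2 lowest and P1 nearest to the control, was found for adamtsl7 (called at adjusted p = 0.0318, and at 0.0527 without P3 replicate 1), for the lens protease gene capn3 and for the crystallin gene crygmxl2. The 3 phenotype comparisons share the control library, so their values are set side by side and not compared as independent results.

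At the other end, some genes were called in opposite directions in different phenotypes and cancelled in the comparison of all exposed libraries. egln3, which encodes an oxygen-sensing prolyl hydroxylase, was at -2.28 in P1, 1.93 in P2 and -1.85 in P3 (joint F adjusted p = 1.05e-12). Its exposed libraries spanned 2.25 to 50.7 CPM, on both sides of the control at 13.2 CPM. znf395a was at -0.75 in P1, 0.62 in P2 and -0.22 in P3, and the amino acid transporter gene slc43a2b at 0.07, -0.25 and 0.89 in the same order. The complement factor H gene cfh was at -0.12, -1.05 and 0.30. Of all tested genes, the 4-group fit called 7.08% higher and 9.19% lower in P1, 14.2% and 15.6% in P2, and 10.4% and 12.2% in P3. None of these 4 genes was called in all exposed libraries against the control (edgeR adjusted p = 0.648 to 0.96).

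**Figure D5:**
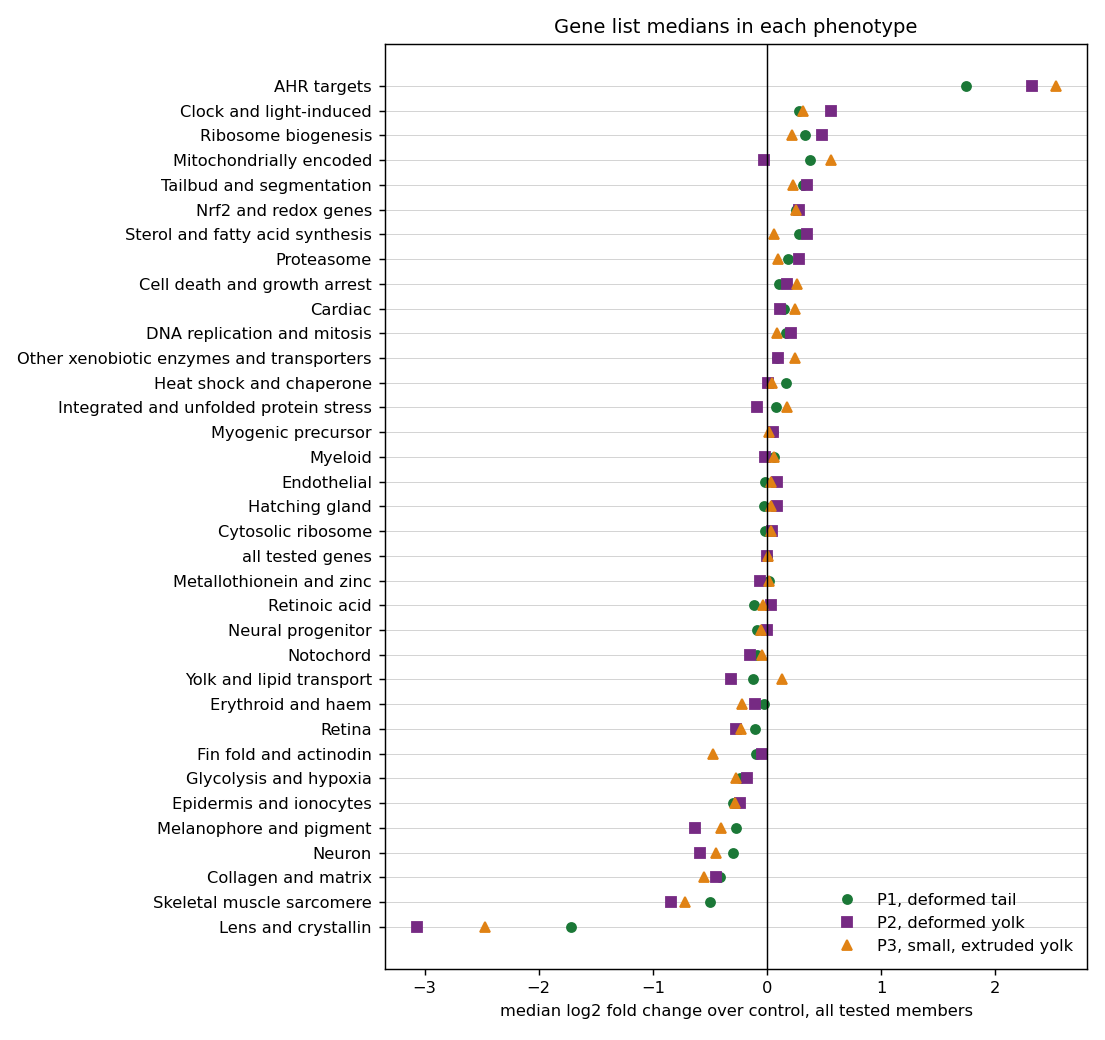
Median log2 fold change over the control of all tested members of each list, fitted for each phenotype (P1 circle, P2 square, P3 triangle), with 0 as the level of the control. The 3 symbols nearly coincide for the epidermis list (-0.30, -0.24 and -0.28) and lie apart for the lens list (-1.72, -3.07 and -2.48). Close medians do not show that single members are alike, since 32 of the 61 epidermis genes differed among phenotypes in the joint F test, against 28.8% of all tested genes.

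In the authors' deposited tables, made from the same counts, 284 of the 340 shared rises (83.5%) were past an adjusted p of 0.05 in the same direction in P1, 295 (86.8%) in P2 and 251 (73.8%) in P3. Of the 629 shared falls, 510 (81.1%) were past it in P1, 563 (89.5%) in P2 and 532 (84.6%) in P3, by the authors' deposited table of each phenotype. Over all tested genes, 11.4%, 22.6% and 12.1% were past the same threshold in either direction in the authors' deposited tables of P1, P2 and P3. The shared genes were selected on these same counts and the same control library, so high shares among them are not independent support.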

How the data were processed

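RNA was purified with RNeasy and poly(A) libraries were prepared with TruSeq RNA v2, per the labels' protocols. The submitters' processing notes name Novoalign and Zv9. The sources used here do not give the counter, the strand setting or the annotation release, so overlapping and antisense genes were not told apart. The 3 deposited tables, 1 per phenotype with the same control column, hold, per the file headers, raw counts and FPKM of each gene in each library. They also hold a score, the negative log10 of an adjusted p times 10, and a log2 ratio of phenotype over control, both made by the authors, per the file headers and the values. Per-sample columns of variance-corrected counts (11) and splice columns (9) were not used. Coordinates are 1-based on Zv9. Of 32312 genes, 5723 had no read.

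The raw counts as deposited were joined by gene identifier and filtered in edgeR 4.0.16 (filterByExpr, with a minimum count of 10 and a minimum total of 15; R 4.3.3, limma 3.58.1), which left 19835 genes, and scaled with TMM factors. The 8 exposed libraries formed 1 group against the control in a two-sided quasi-likelihood F test with Benjamini-Hochberg adjustment (residual degrees of freedom 7, common biological coefficient of variation 0.118). A second model with 4 groups gave phenotype fold changes and the joint F test (residual degrees of freedom 5, coefficient 0.0565). A standard error is the log2 fold change divided by the square root of F. Phenotype ranges used log2 CPM with a prior count of 2. Floors of 3 counts cover counting error only.

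The members, the 34 gene lists (1778 entries, 171 unmatched) and the tests were chosen with earlier results of these data known. Named genes were shared genes with an assigned symbol and at least 5 CPM on average in the higher group: the 14 largest rises and falls and the 6 smallest ranges among changes of at least 2-fold. To these came up to 3 shared members with the smallest p per list and the 6 graded genes of largest range. Also named were 4 genes called in opposite directions and 9 AHR genes in any case. Of these 9, the repressor gene ahrra was not found among the tested genes. Further called members of the lists, and genes said to be chosen after their values were seen, are outside this rule. Values of 2 genes are not reported here. The procedure was tested on simulated counts with a smaller spread than fitted here and no differences among phenotypes. That test does not bear on calls under the spread of these libraries or on a deviating control. Replicate numbers 0 to 2 in the labels did not pair libraries of different phenotypes. Alternatives were DESeq2 1.42.0, other scalings, filters and thresholds, thinning to the control total, and libraries or phenotypes left out.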

Additional observations from a re-analysis of the deposited data

Results flagged for a closer look

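Among the 102 named genes, 5 had 1 exposed library whose gap to its nearest neighbour took an unusually large share of the range of the 8. Chance alone flags about 1 in 20 groups. P3 replicate 0 was the lowest library for hif1al2 (gap over range 0.553), prdx1 (0.538), nfe2l2a (0.73) and cry2b (0.554), and P1 replicate 0 was the highest for slc30a8 (0.565). nfe2l2a had 38.5 CPM in P3 replicate 0 and 48.4 to 52.0 CPM in the other 7 exposed libraries. Without P3 replicate 0 the log2 fold changes were -1.35 for hif1al2, 0.87 for prdx1, 0.75 for nfe2l2a and 1.36 for cry2b.

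Another 40 named genes differed among P1, P2 and P3 in the joint F test at an adjusted p below 0.05. Among AHR-related and other rises these adjusted p were 0.000445 for cyp1b1, 0.00465 for foxq1a, 0.00276 for sult6b1, 0.00352 for foxf2a, 0.0217 for myog, 0.00957 for il6r, 0.000206 for zgc:158387, 0.0163 for meox1, 0.00936 for tmem8c, 0.00847 for prdm1a, 0.0362 for tefa, 0.027 for gadd45aa, 0.00465 for dhrs3b and 0.0117 for hoxb1a. Among shared falls they were 0.0477 for sprb, 0.0249 for aqp3a, 0.0402 for pfkmb, 0.00163 for mt2, 0.00375 for PTS, 0.0014 for gch2, 0.0487 for col1a1b, 0.00695 for col1a1a, 0.00159 for col9a3, 0.000191 for KRT23 (1 of 15), 0.000122 for nes, 0.0412 for ldha and 0.000936 for tmod4. The graded genes gave 0.00259 for and3, 0.00338 for matn3a, 0.000134 for mipb, 0.000844 for adamtsl7, 0.000158 for capn3, 0.000946 for crygmxl2, 0.000997 for cyp1c1 and 0.000692 for cyp1c2. The uncalled genes gave 1.05e-12 for egln3, 4.48e-10 for znf395a, 4.5e-10 for slc43a2b, 4.79e-10 for cfh and 0.0186 for nqo1.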

How the results depend on the processing

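With 1 control library, no alternative replaces the control, and depth limits genes with few control reads. With each exposed library left out in turn, the count of genes higher in exposed libraries ranged from 280 to 445 and of lower genes from 678 to 1017, of shared rises from 251 to 394 and of shared falls from 468 to 714. Among the 97 named genes called, 88 stayed called in all 8 of these refits. The 4-group fit, which takes the spread within phenotypes, called 2103 higher and 2641 lower genes, with 1643 and 1680 shared. A minimum change of 2-fold left 11 higher and 21 lower genes, 8 and 4 of them shared. Without all P3 libraries 555 genes were lower, and without all P2 libraries 536 rises and 1105 falls were shared. A limit of 0.25 on the range gave 344 shared falls. DESeq2 called 563 higher and 984 lower genes, and 895 of the 969 shared genes were shared there too.

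The replicate block could be fitted without the control alone, and gave 4407 genes that differed among phenotypes, against 5707 without the block for the same 8 libraries; same-numbered libraries had correlations of deviations of -0.285 to 0.0796. Leaving out 1 library gave 3083 to 6536 such genes, with 3083 and 3145 when a P2 library was left out, and the DESeq2 likelihood ratio test gave 3974. The direction reversed for 5 named genes that were not called: egln3 (-1.35 in DESeq2, -0.73 in the 4-group fit, -0.42 to 0.35 with 1 library left out, negative at -0.41 and -0.42 without P2 replicate 0 or 1, and -2.06 without all P2 libraries), znf395a (0.16) and nqo1 (-0.042) without all P1 libraries, cfh (0.10) without all P2 libraries and slc43a2b (-0.049) without all P3 libraries. The causes were not tested.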

Other observations

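Genes in this and the following 2 paragraphs were chosen after their values were seen, and no statement on a gene group is made from them. The cholesterol carrier gene star had 0.489 to 0.988 CPM in exposed libraries, against 2.75 CPM in the control (-1.94 ± 0.34, edgeR adjusted p = 0.00797, graded). The glucocorticoid-inactivating gene hsd11b2 (-1.63 ± 0.34) and the liver transaminase gene tat (-3.40 ± 0.60) were graded falls as well. tat had only 0 to 3 reads in exposed libraries and 16 in the control, so its fold change and its range among phenotypes are uncertain. The side-chain cleavage gene cyp11a1 was not called (-0.02 ± 0.70), and its phenotype means spanned 1.64. nr5a1a, for a regulator of steroid synthesis genes, was not called either (-0.60 ± 0.50). pomcb, a precursor gene of pituitary hormones, rose within the limit, with 3.18 to 5.11 CPM in exposed libraries, against 1.34 CPM in the control (1.54 ± 0.35).

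POR (1 of 2), for the reductase that feeds electrons to P450 enzymes, had 27.3 to 34.9 CPM, against 12.6 CPM in the control (1.25 ± 0.15, edgeR adjusted p = 0.0012). The cytochrome b5 gene cyb5a (0.91 ± 0.14), the porphyrin transporter gene abcb6 (1.19 ± 0.18), the methyltransferase genes TPMT (1 of 2) (1.26 ± 0.30) and as3mt (1.01 ± 0.21) and the prostaglandin reductase gene PTGR1 (2 of 2) (2.76 ± 0.68) were shared rises too. TPMT (2 of 2) was not called (1.09 ± 0.40). The polyamine genes odc1 (1.28 ± 0.27) and smox (1.39 ± 0.29) were graded rises. The base excision repair gene neil1 rose (1.01 ± 0.24) beside ddb2 and xpc.

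Copies of the potassium channel gene KCNJ1 on chromosome 18 moved in both directions. KCNJ1 (3 of 7), KCNJ1 (5 of 7) and KCNJ1 (7 of 7) were shared rises at 1.48, 1.42 and 1.21, KCNJ1 (4 of 7) was a graded fall at -2.27 and KCNJ1 (6 of 7) was not called at 0.67. Reads shared between these copies make each value uncertain.

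Some named genes that changed alike are neighbours on Zv9. foxf2a and foxq1a lie 4796 bases apart on chromosome 2, on the same strand. gchfr and cyp1c2 lie 63272 bases apart on Zv9_scaffold3548, and polr1b and cyp1b1 lie 70805 bases apart on chromosome 13. Whether neighbouring position bears on these rises was not tested.

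Shared rises with 0 counts in the control were ugt5a1, fgl2, ccr9a, dfnb31b, CT025651.1 and LEKR1. LEKR1 had 32 to 54 reads in exposed libraries, a mean at least 10.1-fold above the floor of 3 counts per library. In the deposited tables, 19 gene symbols read as calendar dates, and none of them is named here.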
